A study of Rattus with 6 samples.

Results

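The autophagy machinery was described here as 44 genes of 12801 in the deposited exon table of a rat pituitary cell line treated with aspirin. They were chosen by name: the Atg genes, the Gabarap and Map1lc3 families, the kinases Ulk1 to Ulk4, the Wipi and Wdr45 proteins, and 15 further genes of the pathway, of which 14 were analysed. Reads were summed over the 692 exons listed for the 44 genes, of 118147 exons in all. Of 47 symbols in the 6 role groups used below, Atg4a, Map1lc3c and Calcoco1 were not analysed here. RC-4B/C is a line from a rat pituitary adenoma, and its polyadenylated RNA was sequenced after treatment with acetylsalicylic acid (ASA, aspirin) or with dimethyl sulfoxide (DMSO), the solvent control. There were 3 ASA and 3 DMSO libraries, all of the same line. No dose or duration is given in the labels, nor is it stated that the 3 libraries of each group are separate cultures. Every p-value therefore measures only the spread between these libraries, which may be technical. Replicate numbers name the libraries in deposited order and were not used as pairs, and whether any ASA and DMSO libraries were prepared together is not stated. The single comparison, ASA against DMSO, asks how aspirin changes the transcriptome of these cells.

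Macroautophagy encloses parts of the cytoplasm in a double membrane, the autophagosome, and delivers them to the lysosome. The ULK kinase complex starts the process, a class III phosphatidylinositol 3-kinase complex marks the forming membrane, and ubiquitin-like conjugation fixes proteins of the ATG8 family (LC3 and GABARAP) to it. Cargo receptors bind both cargo and ATG8 proteins, and are themselves degraded with the cargo. Transcript levels of these genes measure supply of the parts and not the rate at which cargo is degraded. Endocrine cells also use the lysosome to remove surplus secretory granules.

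The listed exons held 66492447 reads in the shallowest library, ASA replicate 2, and 94486062 in the deepest. The lactotroph marker Prl, which encodes prolactin, had 14037 to 62170 reads per kilobase of its listed exons and per 1000000 reads (RPKM) over the 6 libraries, and the pituitary transcription factor Pou1f1 had 584 to 804. Of 11 pituitary hormone cell markers 7 were analysed. Cga was called lower with ASA, at 3.24, 4.17 and 1.16 against 28.3, 23.8 and 25.2 RPKM. Chga was lower without overlap and did not pass the test. For Prl, Pou1f1, Pomc, Chgb and Scg2 the groups overlapped and no change was called. ASA replicate 2 stood apart in how evenly reads covered a gene. Over 43 autophagy genes with several exons of at least 50 mean reads, the median scatter of exons around their gene's change was 0.60 on the log2 scale in that library, against 0.15 in ASA replicates 1 and 3 and 0.09 to 0.10 in the DMSO libraries. For some of the genes described below, the value without this library is given too. A gene without such a value may also have depended on this library. Of 14 macrophage and leukocyte markers, 4 were analysed. Their summed level was 25.5 to 40.3 RPKM in DMSO and 73.7 to 244 in ASA libraries, and none of the 4 was at 0. Cd68 and Itgax were called higher, with 28.9, 210.1 and 69.4 against 1.9, 3 and 2.54 RPKM for Cd68. Cd14 had the opposite sign (19.3, 3.28 and 10.1 against 18.2, 19.8 and 34.5 RPKM), and neither Cd14 nor Fcer1g passed the test. Of 7 fibroblast markers 3 were analysed, with sums of 3064 to 3830 RPKM in DMSO and 3618 to 6533 in ASA. Of the 3, only Dcn was called (2.49-fold higher), while Lum and Thy1 had log2 fold changes of -0.23 and -0.04. The part of these markers in the results below was not tested. In bulk RNA, more cells of a type and more RNA per cell cannot be told apart.

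Of the 44 autophagy genes 38 did not pass the test, and the 6 that did lay in 4 of the 6 role groups: the ATG8 proteins, their conjugation machinery, the cargo receptors and the PI3 kinase complex. The microtubule-associated LC3 gene Map1lc3a, its relative Gabarapl1, the cargo receptor gene Optn, the conjugation gene Atg16l2 and the autophagy inhibitor gene Rubcn rose with ASA, by 1.68-fold to 2.82-fold. Atg16l1, a scaffold of the conjugation machinery, fell 2.07-fold. All 44 genes had a mean of at least 0.5 RPKM and were tested, in a limma fit over 12502 genes (log2(RPKM + 0.1), Benjamini-Hochberg adjusted p under 0.05). The 5 that rose are 11.4% of the 44, where 6.21% of all genes rose, and the 1 that fell is 2.27%, where 4.99% of all genes fell. In either direction the share was 13.6%, near the 11.2% of all genes, so the number of calls does not set these genes apart. The role groups are small and were drawn up with earlier results of these data known, and none was tested as a set. The direction was uneven. Of the 44 log2 fold changes 30 were positive (68.2%), against 46.5% over all genes tested, and their median was 0.29 against -0.06. The medians were closer together, 0.23 and 0.06, without ASA replicate 2. In 13 genes every ASA library lay above every DMSO library (29.5%, where 19.9% of all genes did so), and in 3 every ASA library lay below (6.82%, where 18.8% did).

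**Figure D1:**
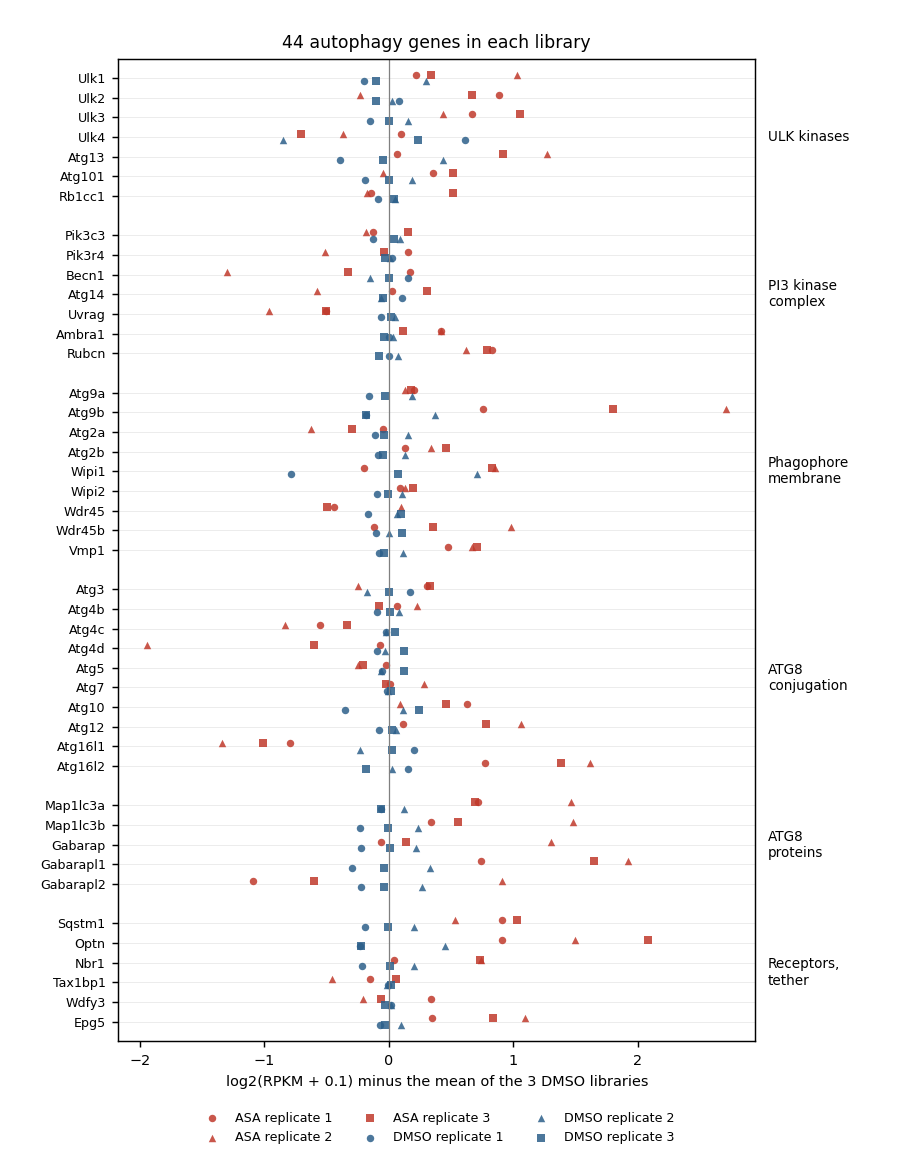
Level of each of the 44 autophagy genes in each library, as log2(RPKM + 0.1) minus the mean of the 3 DMSO libraries (x axis), with genes in rows ordered by role. Red symbols are ASA and blue symbols DMSO libraries, and the symbol's shape gives the replicate. Gabarapl1, Optn and Atg16l2 lie to the right of 0 in all 3 ASA libraries, Atg16l1 lies to the left, and ASA replicate 2 (red triangles) is often the most distant point.

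The libraries of a group did not vary alike. Within the DMSO group, replicate 1 was the lowest library for 31 of the 44 genes (70.5%, against 32.2% of all genes) and replicate 2 the highest for 27 (61.4%, against 36.4%). The median of the 44 genes relative to the DMSO mean was -0.09, 0.09 and -0.00 on the log2 scale in DMSO replicates 1, 2 and 3. It was 0.12, 0.25 and 0.34 in ASA replicates 1, 2 and 3. Over all genes tested the ASA medians were 0.08, -0.28 and 0.06, so the largest gap between the autophagy genes and the rest was in ASA replicate 2. The median spread of a gene between replicates (SD of the log2 values) was 0.34 in ASA and 0.13 in DMSO for the autophagy genes, and 0.41 and 0.18 over all genes.

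The ATG8 proteins, which are attached to the autophagosome membrane and bind cargo receptors, included 2 called increases among 5 measured genes. That is 40% of a small group, where 6.21% of all genes rose. Gabarapl1 was measured at 475, 1073 and 889 RPKM in ASA replicates 1, 2 and 3 and at 231, 358 and 276 in DMSO replicates 1, 2 and 3. All ASA values lay above all DMSO values, and the gene rose 2.71-fold on the log2(RPKM + 0.1) scale (log2 fold change 1.44 ± 0.33 SE, adjusted p = 0.0367). It spans 163293900 to 163301699 of chromosome 4 in the coordinates of the table, whose build is named as Rnor_6.0 (ENSRNOG00000053362). Each of its 4 listed exons was higher in every ASA library than in any DMSO library, with exon differences of 1.11 to 1.62 on the log2 scale.

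Map1lc3a, the LC3A gene, had 168, 283 and 165 RPKM in ASA replicates 1, 2 and 3 against 98.2, 111 and 98.3 in the DMSO replicates. It rose 1.94-fold (log2 fold change 0.96 ± 0.24 SE, adjusted p = 0.0447). ASA replicates 1 and 3 were close to each other and replicate 2 was the highest. All 4 of its exons were separated between the groups, with differences of 0.86 to 1.09. A share of 25% of its exon values were not whole reads, and the reason was not tested.

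Map1lc3b, the LC3B gene whose protein is the usual marker of autophagosomes, did not pass the test. Its values were 45, 99 and 52 RPKM in ASA and 30.1, 41.8 and 35.4 in DMSO libraries, a log2 fold change of 0.79 ± 0.31 (adjusted p = 0.138), without overlap between the groups. It was 0.45 without ASA replicate 2. Its listed exons were very uneven. Exons 7, 8 and 9, counted from the 5′ end, carried nearly all of its reads, with 78.8 to 292 RPKM in the DMSO libraries, while exon 3 had 0.557 to 1.2. Its level summed over 10 exons is thus far below that of its main exons. In exon 8 the level was 367, 897 and 394 in ASA and 198, 292 and 250.1 in DMSO libraries, again without overlap.

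Gabarap, the founding GABARAP gene, had 259, 665 and 296 RPKM in ASA and 230.5, 313 and 272 in DMSO libraries. The groups overlapped, and only ASA replicate 2 was far above the others (log2 fold change 0.46 ± 0.35, adjusted p = 0.414). Without that library the log2 fold change was 0.04. Its exons 1 and 4 had 489 to 687 RPKM in the DMSO libraries, while exon 2 had 1.88 to 2.62 and exon 3 44.7 to 64.7. Gabarapl2, also called GATE-16, had 15.8, 63.4 and 22.1 RPKM in ASA and 28.8, 40.5 and 32.8 in DMSO libraries. ASA replicates 1 and 3 lay below all DMSO libraries and ASA replicate 2 above them (log2 fold change -0.26 ± 0.48, adjusted p = 0.739). Without ASA replicate 2 the log2 fold change of Gabarapl2 was -0.85 and passed the threshold (adjusted p = 0.0395), and without ASA replicate 1 it was 0.15. Its exons 2 and 3 were also near empty, with at most 11.3 RPKM in any library against 39.1 to 177 in exons 1 and 4. These genes form a family of similar sequences, and how reads shared with related copies or pseudogenes were counted is not known. Whether this emptied the inner exons was not tested, so the separate levels and the shares below are uncertain.

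The uneven exons decide which ATG8 gene looks most abundant. Summed over listed exons, the 5 genes had 619 to 864 RPKM together in the DMSO and 963 to 2183 in the ASA libraries. Gabarapl1 made 37.4% to 41.4% of that sum in DMSO and 49.2% to 62.4% in ASA, and Gabarap 36.2% to 38.1% in DMSO and 20.8% to 30.4% in ASA. With each gene measured by its highest exon, Gabarap led in all 3 DMSO libraries with 40.8% to 43.2%, and Gabarapl1 had 21% to 22.7%. By that measure Gabarapl1 made 29.8% to 42.3% in the ASA libraries, and was ahead of Gabarap in ASA replicate 3 only. By both measures the share of Gabarapl1 was larger, and that of Gabarap and Gabarapl2 smaller, in every ASA library than in any DMSO library. Those shares are a description with no test.

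**Figure D2:**
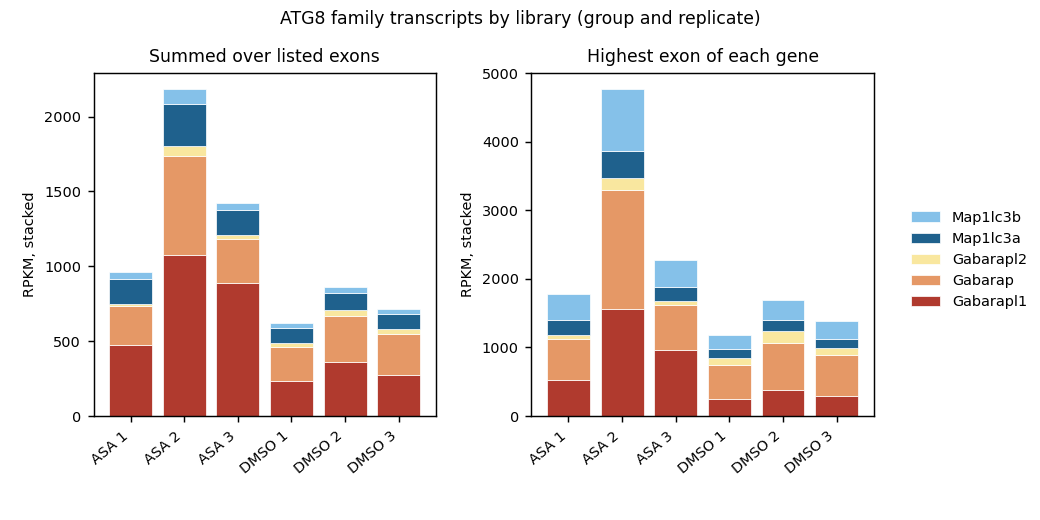
Stacked level (RPKM, y axis from 0) of the 5 ATG8 genes in each library, from reads summed over all listed exons (left) and from the highest exon of each gene (right). The dark red Gabarapl1 segment is larger in every ASA bar than in any DMSO bar in both panels, and the tallest bar is ASA replicate 2, at 2183 and 4765 RPKM.

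Of the 10 measured genes of the ATG8 conjugation machinery, 1 rose and 1 fell, and these were paralogs. Each is 10% of the group, where 6.21% of all genes rose and 4.99% fell. ATG16L1 forms a complex with the ATG5-ATG12 conjugate that directs lipidation of LC3, and ATG16L2 is a related protein that also binds ATG5. Atg16l1 had 54.8, 37.6 and 47.3 RPKM in ASA replicates 1, 2 and 3 against 109.7, 81.3 and 96.7 in the DMSO replicates. Every ASA library lay below every DMSO library (log2 fold change -1.05 ± 0.21 SE, adjusted p = 0.0284). Atg16l2 had 19.8, 35.4 and 30.1 RPKM in ASA against 12.8, 11.7 and 10.1 in DMSO libraries. Here every ASA library lay above every DMSO library, 2.39-fold (log2 fold change 1.26 ± 0.27 SE, adjusted p = 0.0328). Atg16l2 thereby made 26.5% to 48.5% of the summed level of the pair in ASA and 9.49% to 12.6% in DMSO libraries. The sum itself was 73 to 77.4 RPKM in ASA and 93 to 123 in DMSO libraries. Atg16l1 spans 94880054 to 94914101 of chromosome 9 and Atg16l2 166401499 to 166413564 of chromosome 1.

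The changes of the pair ran along the whole genes. All 18 listed exons of Atg16l2 were higher in every ASA library than in any DMSO library, with exon differences of 0.86 to 1.82 on the log2 scale. Of the 19 listed exons of Atg16l1, 18 were lower without overlap. The exception was exon 9, of 48 bases, at 94898057 to 94898104 of chromosome 9. It was little used, at 6.56, 28.2 and 5.25 RPKM in ASA and 5.51, 7.35 and 5.89 in DMSO libraries. Relative to the gene as a whole its level was 12%, 74.9% and 11.1% in ASA replicates 1, 2 and 3 and 5.02%, 9.04% and 6.09% in the DMSO replicates, higher in every ASA library. Its change against the other exons was not past the threshold (log2 difference 1.73, adjusted p = 0.785 in a limma fit of each exon against the rest of its gene), and ASA replicate 2 made most of it. In ASA replicate 2 exon 3 of Atg16l1 was also low, at 11.6 RPKM against 54.2 and 48.7 in ASA replicates 1 and 3, and exon 5 at 11.8 against 35.3 and 33.8.

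None of the other 8 genes of this group passed the test. Atg5, which is joined to ATG12, had 50.7, 43.2 and 44.6 RPKM in ASA and 49.4, 49.1 and 56 in DMSO libraries, with overlap (log2 fold change -0.16 ± 0.17, adjusted p = 0.56). The E1-like enzyme gene Atg7 had 18.1 to 22.3 in ASA and 18.2 to 18.6 in DMSO libraries, and the E2-like enzyme gene Atg3 54.8 to 82.1 and 57.7 to 73.4. Atg12, the ubiquitin-like partner of ATG5, was measured at 44.1, 85.1 and 70.2 RPKM in ASA and 38.7, 42.3 and 41.4 in DMSO libraries. Its groups did not overlap, and its log2 fold change of 0.65 ± 0.26 missed the threshold (adjusted p = 0.139). The proteases that process and release ATG8 proteins had negative values where they differed most. Atg4c had 16 to 22.6 RPKM in ASA and 28.2 to 29.6 in DMSO libraries (log2 fold change -0.58 ± 0.21, adjusted p = 0.11), with 10 of its 11 exons lower without overlap. Atg4d had 42, 11.4 and 29.2 in ASA and 41.4, 43.3 and 48 in DMSO libraries, so that ASA replicate 1 overlapped the controls (log2 fold change -0.87, adjusted p = 0.225). It was -0.33 when ASA replicate 2 was left out.

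Among cargo receptors, 1 of 6 measured genes with the tether Epg5 included rose (16.7%, where 6.21% of all genes did). Optn encodes optineurin, a receptor that links ubiquitinated mitochondria and bacteria to LC3. Its values were 28.1, 42.3 and 63.5 RPKM in ASA and 12.7, 20.5 and 12.8 in DMSO libraries, without overlap, and it rose 2.82-fold (log2 fold change 1.49 ± 0.34 SE, adjusted p = 0.0367). It lies at 77176716 to 77216240 of chromosome 17, and 11 of its 14 exons were separated between the groups. Sqstm1 encodes p62, the best known receptor for ubiquitinated proteins, and had the highest mean level of the 44 genes over listed exons. It had 1047, 806 and 1135 RPKM in ASA and 486, 640.0 and 554 in DMSO libraries. The groups did not overlap, and the log2 fold change of 0.83 ± 0.22 narrowly missed the threshold (adjusted p = 0.0502).

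The lower level of Sqstm1 in ASA replicate 2 came from part of the gene. Exons 5 and 6 had 254 and 232 RPKM there, against 978 to 1175 in ASA replicates 1 and 3 and 430.4 to 757 in the DMSO libraries. Exon 8 had 1792 in ASA replicate 2, more than in any other library. Without ASA replicate 2 the log2 fold change of Sqstm1 was 0.97 and passed (adjusted p = 0.0167). The other receptors were nearer to their controls. Nbr1, a relative of p62 in function, had 113, 183 and 182 RPKM against 94.6, 126 and 111 (adjusted p = 0.203). Tax1bp1 had 94.3 to 134 against 128 to 131, and Wdfy3, whose large protein bridges aggregates to the autophagosome, 8.22 to 12.1 against 9.31 to 9.67. Epg5, a tether that lets autophagosomes fuse with lysosomes, had 14, 23.6 and 19.7 in ASA and 10.5, 11.8 and 10.8 in DMSO libraries, without overlap (log2 fold change 0.76 ± 0.26, adjusted p = 0.0941). Of its 44 exons 34 were higher without overlap and all had a positive difference.

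Of the 7 genes of the class III PI3 kinase complex and its regulators, 1 rose and none fell. The 1 is 14.3% of the group, where 6.21% of all genes rose and 4.99% fell. For the core genes the ASA and DMSO libraries overlapped. The catalytic subunit gene Pik3c3 had 22 to 27.8 RPKM in ASA and 22.8 to 26.6 in DMSO libraries, the regulatory subunit gene Pik3r4 10.9 to 17.3 and 15.2 to 15.8, and Atg14, which directs the complex to autophagosome formation, 8.14 to 15.1 and 11.7 to 13.1. The log2 fold changes of Pik3r4 and Atg14 went from -0.13 and -0.08 to 0.06 and 0.17 without ASA replicate 2. Becn1, encoding the scaffold Beclin 1, had 134, 48.3 and 94.8 RPKM in ASA and 132, 107 and 119 in DMSO libraries. Its ASA values ranged widely and overlapped the controls (log2 fold change -0.48 ± 0.35, adjusted p = 0.383). The lowest value was that of ASA replicate 2, and without it the log2 fold change was -0.08.

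Rubcn and Uvrag, whose proteins bind the Beclin 1 complex used in endosome and autophagosome maturation, had opposite signs. Rubicon, the product of Rubcn, is known as an inhibitor of autophagosome maturation. Rubcn had 32.9, 28.3 and 31.9 RPKM in ASA and 18.4, 19.4 and 17.5 in DMSO libraries, tight in both groups and without overlap. It rose 1.68-fold (log2 fold change 0.75 ± 0.19 SE, adjusted p = 0.0452), and all 20 of its exons had a positive difference, 12 of them without overlap. In ASA replicate 2 its exons were uneven too, with 8.56 RPKM in exon 1 and 36.8 in exon 8, against 45.8 and 4.34 in ASA replicate 1. It lies at 71151132 to 71197032 of chromosome 11. Uvrag had 39.7, 29 and 39.7 RPKM in ASA and 54, 58.3 and 56.9 in DMSO libraries. All 15 of its exons were lower without overlap, and its log2 fold change of -0.66 ± 0.19 did not pass (adjusted p = 0.0673). Without ASA replicate 2 it did, at a smaller log2 fold change of -0.51 (adjusted p = 0.0357). Ambra1, a positive regulator of Beclin 1, had 24.1 to 29.9 against 21.8 to 22.9, without overlap (adjusted p = 0.308).

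No gene of the ULK group passed the test. Ulk1 encodes the kinase that starts autophagy when nutrients are scarce. Its levels were 27.8, 48.9 and 30.3 RPKM in ASA and 20.8, 29.4 and 22.3 in DMSO libraries, with overlap through DMSO replicate 2 (log2 fold change 0.53 ± 0.27, adjusted p = 0.236). It was 0.28 when ASA replicate 2 was left out. Ulk3, a related kinase best known from Hedgehog signalling, had 11.7, 9.92 and 15.3 against 6.58, 8.12 and 7.31, without overlap (log2 fold change 0.72 ± 0.26, adjusted p = 0.114). Atg13, the adaptor of the ULK1 complex, had 64.1, 149 and 116 in ASA and 46.7, 83.2 and 59.5 in DMSO libraries (adjusted p = 0.191). Its partners differed less, with 195 to 288 against 177 to 229.7 for Atg101 and 24.1 to 38.9 against 25.6 to 28.1 for Rb1cc1, the gene of the scaffold FIP200. Ulk2 had 23.2, 10.7 and 20 in ASA and 13.3, 12.7 and 11.7 in DMSO libraries. ASA replicate 2 was the lowest of all 6, and without it the log2 fold change of Ulk2 was 0.77 and passed (adjusted p = 0.0247).

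Among the 9 genes of the phagophore membrane and of lipid supply, none passed either. ATG9A and ATG9B are scramblases of the vesicles that seed the membrane. Atg9b was among the least abundant of the 44 genes and had their largest fold change. It had 1.31, 5.4 and 2.82 RPKM in ASA and 0.638, 0.984 and 0.64 in DMSO libraries, without overlap (log2 fold change 1.75 ± 0.53, adjusted p = 0.0708). Its widely expressed relative Atg9a had 45.5 to 47.8 in ASA and 37.1 to 47.3 in DMSO libraries. Vmp1, a scramblase of the endoplasmic reticulum needed for autophagosome formation, had 41, 46.9 and 48.2 RPKM against 28, 31.9 and 28.7, without overlap (log2 fold change 0.61 ± 0.18, adjusted p = 0.0633). Its exons did not move alike. Exon 7 had 46.6, 73.9 and 71 in ASA and 26.5, 33.2 and 25.2 in DMSO libraries, while exon 6 had 14.2 to 24.5 and 19.8 to 20.8. The PI3P-binding proteins of this step showed no call. Wipi1 spread widely in both groups, at 13.2 to 37.4 RPKM in DMSO and 19.9 to 41.3 in ASA libraries. Wipi2 had 70.7 to 76.3 in ASA and 62.2 to 71.4 in DMSO libraries, and the lipid transfer protein genes Atg2a and Atg2b had log2 fold changes of -0.32 and 0.31. The genes not yet described also overlapped between the groups, with log2 fold changes of -0.28 for Wdr45, 0.40 for Wdr45b, -0.33 for Ulk4, 0.07 for Atg4b and 0.39 for Atg10. Without ASA replicate 2 those of Wdr45, Wdr45b and Atg4b were -0.47, 0.12 and -0.01.

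**Figure D3:**
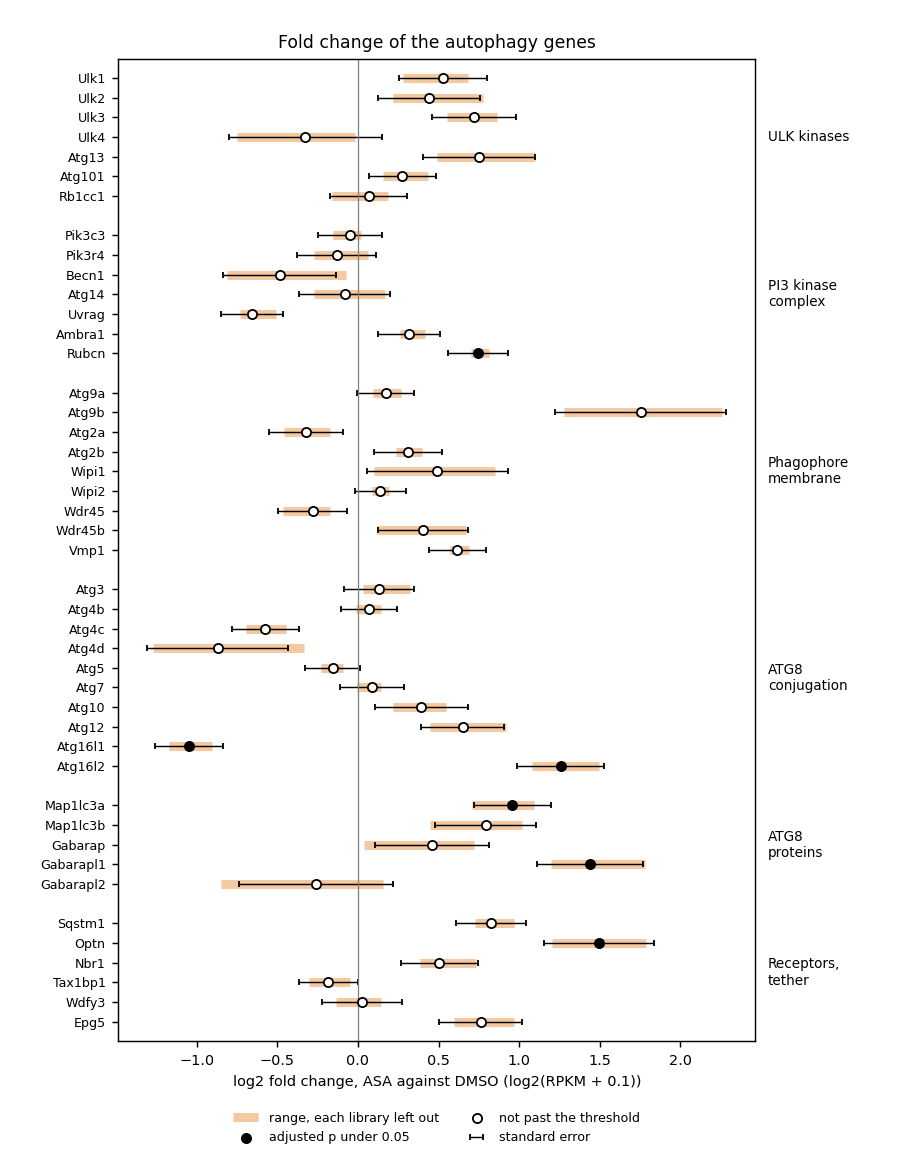
Log2 fold change of ASA against DMSO (x axis) for the 44 autophagy genes in rows ordered by role. Filled points are genes with an adjusted p under 0.05, open points are the rest, black bars are the standard error, and orange bands are the range over 6 fits that each left out 1 library. The 6 filled points are Rubcn, Atg16l1, Atg16l2, Map1lc3a, Gabarapl1 and Optn. None of their bands reaches 0, as must be so where the groups do not overlap.

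The calls depended on which libraries were in the fit. The direction of the 6 called genes could not, because their groups did not overlap. Without ASA replicate 2 there were 9 higher and 3 lower among the 44 (20.5% and 6.82%, where 12.9% and 8.07% of all genes were called), and the 6 kept their calls. Sqstm1, Ulk2, Ulk3, Vmp1, Uvrag and Gabarapl2 were called in addition. Without ASA replicate 1 there were 9 higher and 1 lower, and Rubcn lost its call (adjusted p = 0.0618). The counts of that fit are not set beside those of all genes here. Without DMSO replicate 2 only Atg16l1 kept its call (adjusted p = 0.0467). With DMSO replicate 1, DMSO replicate 3 or ASA replicate 3 left out, none of the 44 passed (0 calls). The adjusted p over the 6 fits was 0.0149 to 0.156 for Gabarapl1, 0.0172 to 0.185 for Map1lc3a, 0.0221 to 0.163 for Optn, 0.0181 to 0.146 for Atg16l1, 0.0174 to 0.162 for Atg16l2 and 0.0167 to 0.226 for Rubcn. Their folds stayed within 2.29 to 3.44, 1.63 to 2.13, 2.3 to 3.45, 1.87 to 2.25, 2.11 to 2.82 and 1.63 to 1.75, in the same order.

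Single exons were compared with the rest of their gene for all genes with several exons. Of 692 exons of the autophagy genes 0 passed, and of all 116384 exons 0 (0%) passed (limma, adjusted p under 0.05). On simulated data this test recovered 5.88% of 2-fold and 64.3% of 4-fold exon changes. A count of 0 therefore does not show that exon usage was unchanged. At an unadjusted p under 0.05 there were 19 among the 692 (2.75%) and 3728 in all (3.2%). The smallest unadjusted p among the autophagy genes belonged to exon 4 of Ulk4, of 183 bases (adjusted p = 0.785). Its level, which is not the ratio tested, was 1.37, 0.904 and 0.813 RPKM in ASA and 2.83, 1.06 and 2.38 in DMSO libraries. These levels are low and overlapped between the groups.

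The genes around the machinery were taken from 4 further lists with 85 symbols, of which 75 were analysed and tested. Of these, 6 rose (8%, where 6.21% of all genes did) and 1 fell (1.33%, where 4.99% did). Their median log2 fold change was 0.07. In 23 of the 75 every ASA library lay above every DMSO library (30.7%, where 19.9% of all genes did so). In 15 every ASA library lay below (20%, where 18.8% did).

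The next list covers mTORC1, its inhibitors and AMPK, which sense nutrients and set the activity of ULK1. Of its 29 tested genes 3 rose (10.3%, where 6.21% of all genes did) and none fell (4.99% of all genes did). Fnip2, a partner of folliculin in control of the Rag GTPases, had 21.5, 90.7 and 69.3 RPKM in ASA and 11.5, 9.99 and 14.3 in DMSO libraries, 4.33-fold higher (adjusted p = 0.0402). ASA replicate 1 lay much nearer to the controls than the other ASA libraries, and without it the fold was 6.68 (adjusted p = 0.0112). Rragd, which encodes one of those Rag GTPases, had 44.6, 94.9 and 74.2 against 30.2, 35.5 and 28.5 (2.17-fold, adjusted p = 0.0478). Sesn2, a stress-induced leucine sensor that restrains mTORC1, had 59.6, 37.7 and 96.4 against 19.6, 30.5 and 21.6 (2.55-fold, adjusted p = 0.0495). Neither Prkab2, an AMPK subunit (15.3, 24.1 and 17.4 against 9.92, 10.4 and 9.01, adjusted p = 0.0534), nor the Ragulator gene Lamtor5 (239.6, 279 and 159.8 against 495, 334 and 463, adjusted p = 0.0582) passed, though the groups did not overlap in either.

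Of 20 tested receptors and regulators of mitophagy and ER-phagy, the removal of mitochondria and endoplasmic reticulum, 2 rose and 1 fell. These are 10% and 5%, where 6.21% and 4.99% of all genes did. Tex264, an ER-phagy receptor, had 144, 171 and 139 RPKM in ASA and 60.4, 58 and 57.3 in DMSO libraries. Its groups were far apart relative to their spread, 2.57-fold (log2 fold change 1.36 ± 0.16 SE, adjusted p = 0.0119). Stbd1, which binds glycogen and GABARAPL1, had 71.5, 23.8 and 117 against 7.36, 14.2 and 9.15 (5.87-fold, adjusted p = 0.0335). Its ASA values spread widely, and without ASA replicate 2 the fold was 9.17 (adjusted p = 0.00681). Retreg3, an ER-phagy receptor of the reticulon-homology family, fell 2.48-fold, with 52.9, 23.3 and 39.6 against 77.1, 107 and 91.1 (adjusted p = 0.0396). Ncoa4, the receptor for ferritin, had 120.2, 188 and 170.4 against 86.6, 98.9 and 92.4 (adjusted p = 0.0551), and the mitophagy receptor gene Bnip3l 40.9, 33.4 and 40.8 against 53.1, 67.2 and 65.2 (adjusted p = 0.0562). Both were separated between the groups without passing.

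Of 19 tested genes of autophagosome-lysosome fusion 1 rose (5.26%, where 6.21% of all genes did) and none fell (4.99% of all genes did). Plekhm2, an adaptor that links lysosomes to kinesin, had 37.2, 38.7 and 37.3 RPKM in ASA and 21.5, 23.1 and 21.6 in DMSO libraries (1.71-fold, adjusted p = 0.0353). Its partner Arl8b had 116, 155 and 158 against 97.4, 87.4 and 99.4 (adjusted p = 0.0798), and Tecpr1, a tether, 52, 34.9 and 57.5 against 22.7, 32.8 and 26.8 (adjusted p = 0.0822). Bloc1s1, a subunit of the BORC complex that positions lysosomes, had 57.1, 26.1 and 41.1 against 71.9, 66.4 and 68.6 (adjusted p = 0.105), and the SNARE gene Vamp8 223, 140.0 and 187 against 243, 230.0 and 265 (adjusted p = 0.196). In these 4 genes, too, the groups did not overlap. Of the 19 fusion genes 5 were higher without overlap (26.3%, where 19.9% of all genes were). A further 3 were lower without overlap (15.8%, where 18.8% of all genes were).

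The list of transcription factors held 7 tested genes, members of the MiT/TFE and FOXO families and Zkscan3. None passed, a count of 0 beside 3 (42.9%) at an unadjusted p under 0.05, where 30% of all genes were under it. Foxo1 and Mitf passed without ASA replicate 2, 2 of the 7, where 12.9% of all genes were called higher and 8.07% lower. TFEB and TFE3 are known activators of lysosomal and autophagy genes. Tfeb had 26, 23.3 and 24.9 RPKM in ASA and 20.4, 15.5 and 18.2 in DMSO libraries (adjusted p = 0.177). Tfe3 had 69.6, 60.2 and 91.2 against 39.6, 59.3 and 45.1 (adjusted p = 0.126), and Mitf 4.79, 2.98 and 4.35 against 2.38, 2.63 and 2.02 (adjusted p = 0.168). In all of these the groups did not overlap, although DMSO replicate 2 came close to ASA replicate 2 for Tfe3. Foxo1 was the nearest to the threshold, with 4.41, 5.28 and 6.01 against 2.52, 2.87 and 2.21 (log2 fold change 1.01 ± 0.29, adjusted p = 0.0625), and Foxo4 had the opposite sign, with 12.7, 9.19 and 11.3 against 15.1, 21.1 and 15.9 (adjusted p = 0.13). Foxo1 was past the threshold by limma-voom on recovered reads (adjusted p = 0.0494). Foxo3 had 8.09, 27.9 and 16.6 against 8.27, 8.65 and 7.77, with overlap (log2 fold change 0.91 ± 0.43, adjusted p = 0.197). It passed in 1 of the fits that left out a library (adjusted p = 0.0315). Zkscan3 had 30.8, 3.93 and 27.3 against 19.9, 26 and 21.2, also with overlap (log2 fold change -0.57 ± 0.72, adjusted p = 0.622).

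The 7 genes called in the 4 lists were Stbd1, Fnip2, Tex264, Sesn2, Rragd, Plekhm2 and Retreg3. Their calls also depended on the libraries in the fit. Without ASA replicate 2, 12.9% of all genes were called higher and 8.07% lower. The mTORC1 list then had 4 higher and 3 lower of 29 genes. The mitophagy and ER-phagy list had 4 and 2 of 20, and the fusion list 2 and 0 of 19. All 7 kept their calls in that fit. None of the 7 did with ASA replicate 3, DMSO replicate 1 or DMSO replicate 3 left out. Without DMSO replicate 2 only Tex264 passed (adjusted p = 0.0238), and without ASA replicate 1 Stbd1 (adjusted p = 0.0536) and Sesn2 (adjusted p = 0.0706) did not. The adjusted p in the least favourable of the 6 fits was 0.0866 for Tex264, 0.139 for Stbd1, 0.147 for Fnip2, 0.162 for Retreg3, 0.185 for Sesn2, 0.188 for Plekhm2 and 0.19 for Rragd.

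**Figure D4:**
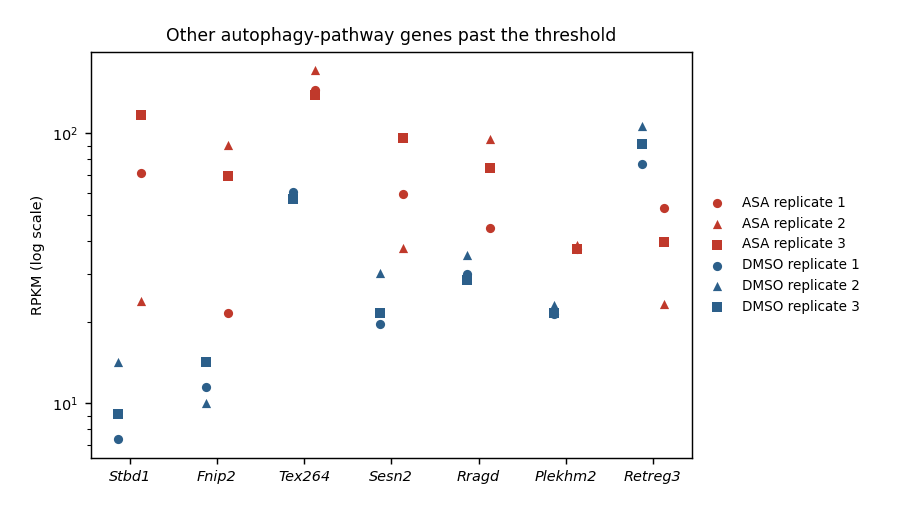
Level (RPKM, log scale) of the 7 called genes from the 4 lists around the autophagy machinery in each library, ordered by fold change. Red symbols are ASA and blue symbols DMSO libraries, with the shape giving the replicate. ASA values lie above DMSO values for Stbd1, Fnip2, Tex264, Sesn2, Rragd and Plekhm2 and below them for Retreg3, and ASA replicates differ most for Stbd1 and Fnip2.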

How the data were processed

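Per the labels' protocols, directional libraries were built from polyadenylated RNA. The values deposited by the authors are log2 RPKM, 1 row per exon. The submitters' processing notes name, for the authors' work, Trim Galore 0.4.1, cutadapt 1.14, TopHat2 2.1.0, Bowtie2, edgeR 3.26.8 and the build Rnor_6.0. How reads were counted, with which annotation and whether by strand, is not given in the sources used here, so reads of overlapping and antisense genes cannot be told apart, and reads of near-identical copies are uncertain.

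The log was undone and a constant of 0.25 read removed, after which 95.7% or more of each library's values lay within 0.02 of a whole read. Reads were summed per gene and divided by the length of its listed exons and by the library's total. The 12502 genes whose RPKM averaged at least 0.5, leaving out 299, were fitted with limma 3.58.1 in R 4.3.3 (lmFit, eBayes with trend, two-sided, no covariates) on log2(RPKM + 0.1). Benjamini-Hochberg adjustment was over all genes, with calls at an adjusted p under 0.05. The pseudocount understates the fold of low genes. No count model was used, since the deposited values are not counts.

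For exons, limma's diffSplice was planned. On simulated data it called unchanged exons, so each exon's log2 ratio to the rest of its gene was fitted with limma instead, a choice made after seeing the data. The library quality weights of limma (arrayWeights), an alternative, were run gene by gene, since the default did not converge.

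The members, the gene lists and the naming rule were chosen with earlier results of these data known. The rule names called members, 9 core genes, members without overlap and with a fold of at least 1.5, and up to 3 further members per role group, or 5 per other list, by smallest p. Other members are given by range. The exons described (other than exon 9 of Atg16l1) and Ulk2 were chosen after their values were seen. Alternatives were other pseudocounts, filters, scalings, variance models and gene values, voom on recovered reads, and each library left out. Leaving out both libraries numbered 2 was added after seeing the data.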

Additional observations from a re-analysis of the deposited data

How the results depend on the processing

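The 5 higher and 1 lower calls among the 44 autophagy genes were each within 1.5 times of those numbers under both other pseudocounts. The same held with no filter on low values, a mean RPKM of at least 2 and voom on recovered reads. No called gene changed sign. With groups that do not overlap, another pseudocount or filter could not change it. The higher calls numbered 2 with eBayes without trend, 2 with the median exon as gene value and 18 with library quality weights. They numbered 10 without both libraries numbered 2, an alternative chosen after seeing the data. The lower calls numbered 2 with median-ratio scaling, 2 with quantile normalization, 6 with library quality weights and 2 without both libraries numbered 2. Without both libraries numbered 2 the shares were 22.7% higher and 4.55% lower, where 13.9% and 11.4% of all genes were called. The other counts are not set beside those of all genes here. With 1 library left out at a time the higher calls ranged from 0 to 9 and the lower from 0 to 3. Gabarapl1 and Map1lc3a lost their calls with median-ratio scaling, Map1lc3a by voom, Gabarapl1, Map1lc3a and Rubcn without trend, and Map1lc3a, Optn and Rubcn with the median exon. Sqstm1 gained one by voom, with the stricter filter and with median-ratio scaling. The cause of these shifts was not tested. Of the exons 0 were called, and 1 with diffSplice as planned. No paired analysis was possible because the labels give no replicate numbers that pair the groups, and deposited order was not taken as pairing. With 3 libraries a group, a p that missed the threshold does not show that a gene or an exon was unaffected.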
